A study of Homo sapiens with 12 samples.

Results

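MicroRNAs and expressed short hairpin RNAs (shRNAs) are made and used by a shared set of proteins, and the genes of 10 of them were followed here: AGO1, AGO2, AGO3, DICER1, DROSHA, DGCR8, XPO5, TARBP2, TNRC6A and TNRC6B. They were chosen by name, with each gene matched to 1 row of the count tables, so the set is 10 of 60675 gene rows. Poly(A) RNA sequencing was done in a pair of triple-negative breast cancer cell lines, HCC1187 (grown in RPMI-1640) and MDA-MB-468 (grown in DMEM), both described in the labels as basal-like. Each line was transfected for 48 h with an shRNA, either sh-SOX9-AS1, aimed at the long non-coding RNA SOX9-AS1, or the control, which the labels give as sh-LacZ. The groups were HCC1187 sh-SOX9-AS1 (libraries S10 to S12), HCC1187 sh-CONTROL (S7 to S9), MDA-MB-468 sh-SOX9-AS1 (S4 to S6) and MDA-MB-468 sh-CONTROL (S1 to S3), with 3 libraries each. The count columns of both sh-SOX9-AS1 groups carry the word BLANCO, as do the descriptions of the samples labelled sh-SOX9-AS1, and what it stands for is not explained in the labels. Every group therefore carries an shRNA, and each line is 1 cell line. Whether the 3 libraries of a group come from different cultures is not stated in the labels, so p-values measure only the spread between these libraries, which may be technical.

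A primary microRNA transcript is cut in the nucleus by the Microprocessor, in which DROSHA is the nuclease and DGCR8 the RNA-binding partner. Exportin 5, encoded by XPO5, carries the hairpin to the cytoplasm, where DICER1 cuts it with its partner TARBP2. An Argonaute protein, AGO1 to AGO4, holds the mature strand, and AGO2 is the member best known for slicing a fully matched target. The scaffold proteins TNRC6A, TNRC6B and TNRC6C bind Argonautes and bring deadenylases to the target RNA. Expressed shRNAs enter this route as hairpins and use XPO5, DICER1 and the Argonautes.

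Transcripts of the machinery also carry microRNAs. In the gene of DGCR8 (GRCh38 chromosome 22, 20080232 to 20111877, plus strand) a pair of hairpins lies inside exons, so the Microprocessor can cut the messenger RNA of its own subunit. Their mature sequences are shown because they tie DGCR8 to its own product; they are from RefSeq (GRCh38.p14), written 5′ to 3′ with the seed, bases 2 to 8, in capitals.
hsa-miR-3618: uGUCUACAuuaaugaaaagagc
hsa-miR-1306-5p: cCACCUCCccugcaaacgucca
hsa-miR-1306-3p: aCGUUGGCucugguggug
The first lies at chr22:20085797-20085818 and the arms of miR-1306 at chr22:20086072-20086093 and chr22:20086112-20086129, all on the plus strand within exons of DGCR8. The libraries hold poly(A) RNA and measure no mature microRNA.

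Library totals ran from 6026376 to 10160040 counts, and the members had between 132 and 3011 counts per library, the lowest for TARBP2 and the highest for AGO2. Levels are given as CPM, counts scaled to a common library size with TMM factors over the 12 libraries. S4 stood with the controls of its line: across genes it correlated at r = 0.9884, 0.9892 and 0.9921 with S1 to S3, and at 0.9745 and 0.972 with S5 and S6. It was closest to S3, which correlated at 0.9906 with S1 and at 0.9911 with S2. MDA-MB-468 values are therefore given with all 6 libraries and without S4. That choice was made on these same counts. The p-values and counts of genes without S4 follow from it and are descriptive. SOX9-AS1 itself stood at 1.16, 0.697 and 0.796 CPM in HCC1187 sh-SOX9-AS1 and at 2.32, 1.40 and 1.74 CPM in HCC1187 sh-CONTROL, a fall in edgeR's quasi-likelihood test (log2 fold change −1.08 ± 0.36 SE, adjusted p = 0.0349). That call rests on 5 to 24 counts per library and did not hold when S12 (0.136), S11 (0.0891), S9 (0.0700) or S7 (0.168) was left out. With sh-SOX9-AS1 in MDA-MB-468 the RNA had 5.54, 5.03 and 5.57 CPM in S4, S5 and S6, against 6.04, 7.28 and 6.54 CPM with sh-CONTROL. It did not pass there (−0.30 ± 0.20, adjusted p = 0.417). SOX9-AS1 did not set S4 apart from S5 and S6, as the value of S4 lay between theirs. The gene SOX9 had 149.5, 120.3 and 111.6 CPM in S4, S5 and S6, against 229.6, 203.2 and 180.2 CPM with sh-CONTROL. For SOX9, S4 thus lay below every control and above S5 and S6. Of the basal markers KRT5, KRT14, KRT17, EGFR and FOXC1, all 5 had reads in MDA-MB-468, with summed levels of 6368 to 8595 CPM with sh-SOX9-AS1 and 8378 to 8526 CPM with sh-CONTROL. In HCC1187 the sums were 194 to 209 CPM with sh-SOX9-AS1 and 231 to 257 CPM with sh-CONTROL, with KRT5 and KRT14 at or near 0. EGFR carried most of the MDA-MB-468 sum, with 5463 to 6454 CPM, while FOXC1 was higher in HCC1187, with 173 to 191 CPM in its controls, against 72.8 to 95.2 CPM in the MDA-MB-468 controls. Luminal markers summed to 125 to 133 CPM in HCC1187 sh-CONTROL and to 173 to 187 CPM in MDA-MB-468 sh-CONTROL, so the lists do not all point one way on the basal-like label. ERBB2 was most of the HCC1187 sum (87.3 to 95.2 CPM). FOXA1 (64.4 to 78.2 CPM) and ERBB2 (57.3 to 65.6 CPM) were most of the MDA-MB-468 sum. ESR1 and PGR had at most 7.18 CPM in these controls. Fibroblast markers, nearly all COL1A1, summed to 44.6 to 52.5 CPM in HCC1187 sh-CONTROL and 11.9 to 15.2 CPM in MDA-MB-468 sh-CONTROL. Blood cell markers summed to at most 0.412 CPM in any library.

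**Figure D1:**
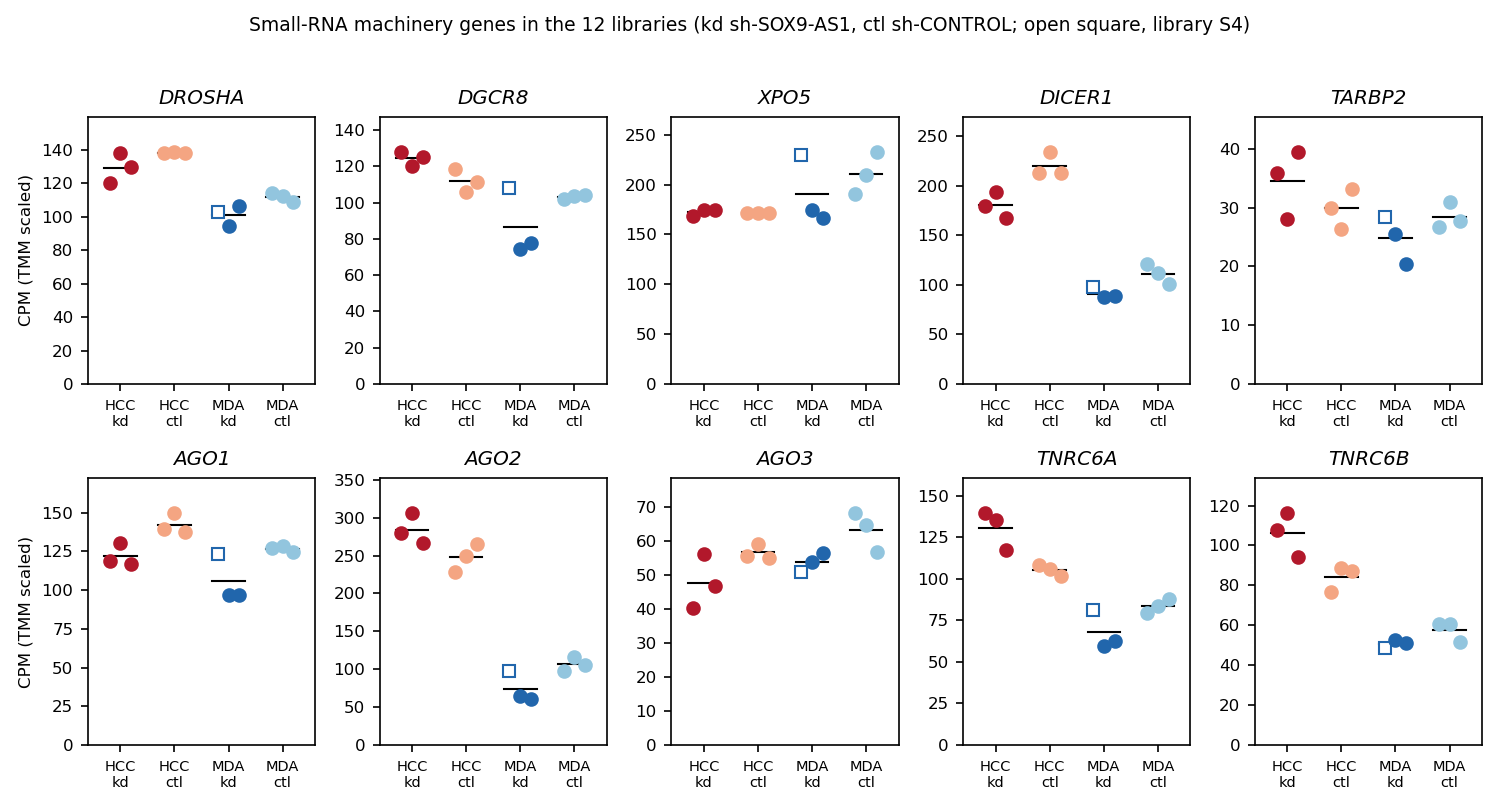
CPM (TMM scaled) of the 10 genes in each library, with 1 point a library, a line at the group mean, and S4 as an open square. AGO2 and DICER1 are higher in all 6 HCC1187 libraries than in all 6 MDA-MB-468 libraries, and S4 lies near the controls of its line for AGO1, AGO2, DGCR8, XPO5 and TNRC6A.

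In HCC1187, sh-SOX9-AS1 went with less DICER1 RNA and more RNA of the scaffold genes TNRC6A and TNRC6B. DICER1 fell 1.23-fold, TNRC6A rose 1.23-fold and TNRC6B rose 1.25-fold. No nuclear member passed the test: DROSHA, DGCR8 and XPO5 had log2 fold changes of −0.11, 0.14 and −0.00. In all, 2 members rose, 1 fell and 7 did not pass edgeR's test, where 22.8% of the 14970 genes tested passed, 9.78% higher and 13.1% lower. The members' count is near that share and is no result about the set. The median log2 fold change was 0.07 over the members and 0.01 over all genes tested. In bulk RNA, fewer cells that express a gene and less RNA per cell cannot be told apart.

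DICER1 (chromosome 14, 95086228 to 95158010, minus strand), the nuclease that cuts hairpins to their mature length, had 179, 194 and 168 CPM in S10 to S12 with sh-SOX9-AS1, against 213, 234 and 213 CPM in S7 to S9 with sh-CONTROL. All sh-SOX9-AS1 libraries lay below all controls, as in 19.2% of all genes tested. The log2 fold change was −0.30 ± 0.09 (SE, n = 3 per group, edgeR adjusted p = 0.0157). Its double-stranded RNA-binding partner TARBP2, with the lowest counts of the set, had 35.9, 28.1 and 39.5 CPM with sh-SOX9-AS1, against 30.02, 26.4 and 33.2 CPM with sh-CONTROL. These ranges overlapped, and TARBP2 did not pass (0.21 ± 0.12, adjusted p = 0.235).

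TNRC6A (chromosome 16, 24610209 to 24827632, plus strand), a scaffold between Argonaute and the deadenylases, had 139.8, 135 and 117 CPM in S10 to S12 with sh-SOX9-AS1, against 109, 106 and 102 CPM with sh-CONTROL. Its paralog TNRC6B (chromosome 22, 40044817 to 40335808, plus strand) had 108, 116 and 94.3 CPM with sh-SOX9-AS1, against 76.6, 88.8 and 87.4 CPM with sh-CONTROL. In both genes every sh-SOX9-AS1 library was above every control, as in 19.2% of all genes tested. The log2 fold changes were 0.30 ± 0.09 for TNRC6A (edgeR adjusted p = 0.0186) and 0.32 ± 0.10 for TNRC6B (adjusted p = 0.0190). The third paralog TNRC6C had 39.1, 33.0 and 27.2 CPM with sh-SOX9-AS1, against 28.3, 31.5 and 28.4 CPM with sh-CONTROL, and did not pass (0.15 ± 0.12, adjusted p = 0.418).

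The windows before the RefSeq starts of TNRC6A and TNRC6B are shown because both genes rose in HCC1187. Each line has the 250 bases before the RefSeq start (GRCh38.p14, plus strand, chr16:24729401-24729650 and chr22:40044584-40044833), 5′ to 3′. The RefSeq start of TNRC6A lies inside the longer gene span given above, so its window is not the start of the counted gene. Capitals mark the GC box GGGCGG and the CCAAT box on either strand.
TNRC6A: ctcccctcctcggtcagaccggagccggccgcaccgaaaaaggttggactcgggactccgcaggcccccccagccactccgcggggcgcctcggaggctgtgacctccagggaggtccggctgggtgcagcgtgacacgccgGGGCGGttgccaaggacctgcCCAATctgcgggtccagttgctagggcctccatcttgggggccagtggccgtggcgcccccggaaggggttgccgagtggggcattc
TNRC6B: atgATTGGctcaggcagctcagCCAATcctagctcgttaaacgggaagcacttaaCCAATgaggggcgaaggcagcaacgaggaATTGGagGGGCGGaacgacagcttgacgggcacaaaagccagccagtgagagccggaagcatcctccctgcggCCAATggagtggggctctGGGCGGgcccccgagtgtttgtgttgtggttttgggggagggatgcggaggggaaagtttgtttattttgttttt
The window of TNRC6A held 1 GC box and 1 CCAAT match, and that of TNRC6B held 2 GC boxes and 5 CCAAT matches, at places that do not overlap. The RefSeq table held 9 of the 10 members: all 9 had a GC box and 7 had a CCAAT match before at least 1 start, and 0 had the E-box CACGTG. Among all 35116 windows of that length, 42.6% held the GC box, 32.0% the CCAAT box and 6.34% the E-box. DICER1 has 5 listed starts and TARBP2 has 3, which gives them more windows than the other members.

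The Argonaute genes of HCC1187 did not move one way. AGO1 had 119, 130.3 and 117 CPM with sh-SOX9-AS1, against 139.7, 149.9 and 137 CPM with sh-CONTROL, with no overlap between the groups (−0.23 ± 0.09, edgeR adjusted p = 0.0552). AGO2, the slicing Argonaute, had 279, 306 and 266 CPM with sh-SOX9-AS1, against 228, 250.02 and 265 CPM with sh-CONTROL, with S12 only just above S9 (0.19 ± 0.09, adjusted p = 0.125). AGO3 had 40.1, 56.2 and 46.8 CPM with sh-SOX9-AS1, against 55.5, 59.2 and 55.1 CPM with sh-CONTROL (−0.26 ± 0.11, adjusted p = 0.0960). None of these 3 passed, and S11 was the library that brought AGO3 into the range of the controls. Of all genes tested, 19.2% lay above all controls and 19.2% below.

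Upstream of Dicer, XPO5 was the steadiest member of HCC1187, with 169, 174 and 174 CPM under sh-SOX9-AS1, against 172, 172 and 171 CPM under sh-CONTROL (−0.00 ± 0.08, edgeR adjusted p = 0.986). DGCR8 had 128, 120.1 and 125 CPM with sh-SOX9-AS1, against 119, 106 and 111 CPM with sh-CONTROL (0.14 ± 0.08, adjusted p = 0.232). DROSHA had 120.1, 138 and 130.0 CPM with sh-SOX9-AS1, against 138, 139 and 138 CPM with sh-CONTROL (−0.11 ± 0.08, adjusted p = 0.398). The DGCR8 groups did not overlap, and those of DROSHA were apart by less than 1 CPM. Counted over the members, 4 had all sh-SOX9-AS1 libraries above the controls and 3 had them all below, where 19.2% of the genes tested did so in each direction.

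The 3 calls of HCC1187 depended on single libraries. DICER1 did not pass without S8 (adjusted p = 0.104) or S12 (0.0968), TNRC6A without S8 (0.0567), S9 (0.0803), S10 (0.0503) or S11 (0.0679), and TNRC6B without S7 (0.127) or S11 (0.1098), while AGO1 and AGO3 fell without S11 (0.0245 and 0.0112). With all 12 libraries in 1 fit 0 members passed, and with library totals as the only scaling AGO2 also rose (0.25, adjusted p = 0.0306) and 57.7% of the calls over all genes were rises, against 42.8% with TMM.

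**Figure D2:**
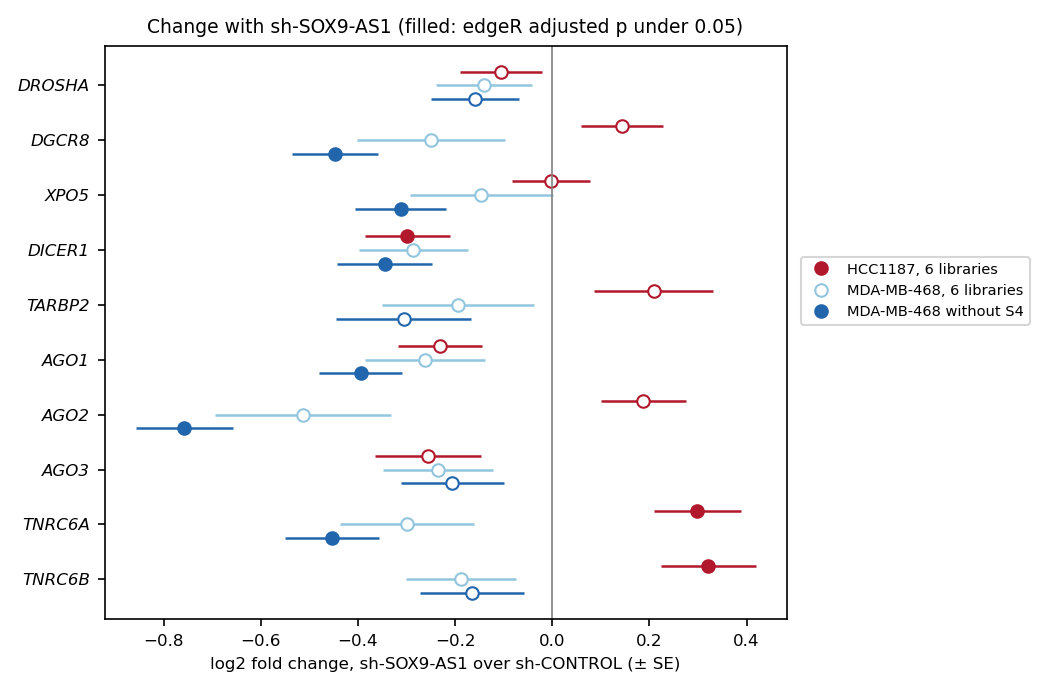
Log2 fold change (sh-SOX9-AS1 over sh-CONTROL, bars ± SE) of the 10 genes in HCC1187, in MDA-MB-468 with 6 libraries and in MDA-MB-468 without S4, with filled points for edgeR adjusted p under 0.05. DICER1 lies left of 0 in each, TNRC6A and TNRC6B lie right of 0 in HCC1187 and left of it in MDA-MB-468, and AGO2 reaches −0.76 without S4.

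In MDA-MB-468, 0 members passed edgeR's test with all 6 libraries, and without S4 6 of them fell: AGO1, AGO2, DGCR8, DICER1, TNRC6A and XPO5. With 6 libraries 1 of 13638 genes passed (0.00733%), 2554 genes and, among the members, AGO2 and DICER1 had an unadjusted p under 0.05, and DESeq2 called 304 genes and 0 members. All 10 members had a negative log2 fold change, with a median of −0.24 over the members and −0.00 over all genes tested. Without S4, 6 members fell, 0 rose and 4 did not pass, where 40.7% of 13947 genes passed, 20% higher and 20.7% lower. The median was then −0.33 over the members and −0.00 over all genes.

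AGO2 had the largest change of the 10, with and without S4. It had 97.3, 65.3 and 61.0 CPM in S4, S5 and S6 with sh-SOX9-AS1, against 98.2, 116 and 106 CPM in S1 to S3 with sh-CONTROL. S5 and S6 were well below the controls, and S4 was within 1 CPM of the lowest control. The log2 fold change was −0.51 ± 0.18 with 6 libraries (edgeR adjusted p = 0.211) and −0.76 ± 0.10 without S4 (adjusted p = 3.25e-05), a 1.69-fold fall. With no filter on low counts AGO2 also passed with S4 kept (−0.52, adjusted p = 0.0144).

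Both Microprocessor and export genes were lower in S5 and S6. DGCR8 had 108, 74.3 and 77.9 CPM in S4 to S6 with sh-SOX9-AS1, against 102, 104 and 104 CPM with sh-CONTROL, so that S4 was above every control. Its log2 fold change was −0.25 ± 0.15 with 6 libraries (edgeR adjusted p = 0.376) and −0.45 ± 0.09 without S4 (adjusted p = 0.00104). XPO5 had 230.1, 174 and 167 CPM with sh-SOX9-AS1, against 191, 209 and 233 CPM with sh-CONTROL (−0.15 ± 0.15, adjusted p = 0.583; −0.31 ± 0.09 without S4, adjusted p = 0.0150). DROSHA, the catalytic partner of DGCR8, had 103, 94.6 and 106 CPM with sh-SOX9-AS1, against 114, 112 and 109 CPM with sh-CONTROL. DROSHA passed neither with 6 libraries (−0.14 ± 0.10, adjusted p = 0.436) nor without S4 (−0.16 ± 0.09, adjusted p = 0.174).

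DICER1 had 97.5, 87.2 and 88.7 CPM with sh-SOX9-AS1 in MDA-MB-468, against 121, 112 and 100.4 CPM with sh-CONTROL, and here S4 too lay below every control. Its log2 fold change of −0.29 ± 0.11 with 6 libraries did not pass (edgeR adjusted p = 0.235), and it fell by 0.34 ± 0.10 without S4 (adjusted p = 0.0109). TARBP2 had 28.5, 25.6 and 20.4 CPM with sh-SOX9-AS1, against 26.7, 30.9 and 27.7 CPM with sh-CONTROL, and passed in neither fit (−0.19 ± 0.16, adjusted p = 0.492; −0.31 ± 0.14 without S4, adjusted p = 0.0925). AGO1 had 123, 96.6 and 96.9 CPM with sh-SOX9-AS1, against 127, 128 and 124 CPM with sh-CONTROL. The 2 low AGO1 values were those of S5 and S6, and AGO1 fell by 0.39 ± 0.09 without S4 (adjusted p = 0.00188; −0.26 ± 0.12 with 6 libraries, adjusted p = 0.285). AGO3 had 50.8, 53.8 and 56.4 CPM with sh-SOX9-AS1, against 68.2, 64.6 and 56.8 CPM with sh-CONTROL, and passed in neither fit (adjusted p = 0.291 and, without S4, 0.137).

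Of the scaffold genes, TNRC6A had 81.0, 59.8 and 62.5 CPM with sh-SOX9-AS1 in MDA-MB-468, against 79.2, 83.4 and 87.8 CPM with sh-CONTROL. It fell by 0.45 ± 0.10 without S4 (edgeR adjusted p = 0.00167), and S4 lay inside the range of the controls (−0.30 ± 0.14 with 6 libraries, adjusted p = 0.280). TNRC6B had 48.6, 52.4 and 50.9 CPM with sh-SOX9-AS1, against 60.6, 60.7 and 51.8 CPM with sh-CONTROL, and passed in neither fit (adjusted p = 0.368 and, without S4, 0.234). With 6 libraries, 5 members (AGO1, AGO2, AGO3, DICER1 and DROSHA) lay below all controls and 0 above, against 11.4% and 10.2% of all genes tested. Without S4, 9 members, all but TNRC6B, lay below all controls, against 30.8% of all genes.

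Other measures of the same libraries moved with the falls in S5 and S6. KRT17 stood at 124 and 101.2 CPM in S5 and S6 with sh-SOX9-AS1 and at 633 CPM in S4, against 572 to 663 CPM with sh-CONTROL, and the share of counts in the 10 most abundant genes was 8.80% and 9.88% in S5 and S6 and 7.22% in S4, against 7.40% to 7.87% in S1 to S3. Their part in the member values was not tested.

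The difference between the lines, the log2 fold change of HCC1187 minus that of MDA-MB-468, was tested as an interaction over the 12 libraries. TNRC6A was the member that passed (0.61 ± 0.16, edgeR adjusted p = 0.04996, just under the threshold of 0.05), where 3.75% of 16328 genes did, 1.24% higher and 2.52% lower. AGO2 (0.71 ± 0.20, adjusted p = 0.0615), TNRC6B (0.52 ± 0.15, adjusted p = 0.0710) and DGCR8 (0.41 ± 0.17, adjusted p = 0.191) did not. Without S4, 4 members passed, all with the higher value in HCC1187, where 25.6% of 16807 genes passed, 12.4% higher and 13.2% lower. These were AGO2 (0.95 ± 0.13, adjusted p = 6.15e-06), TNRC6A (0.75 ± 0.13, adjusted p = 0.000107), DGCR8 (0.59 ± 0.12, adjusted p = 0.000608) and TNRC6B (0.49 ± 0.15, adjusted p = 0.0150).

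DICER1, in contrast, had nearly the same log2 fold change in both lines, −0.30 in HCC1187 and −0.29 in MDA-MB-468, and the difference was 0.00 ± 0.13. That SE leaves room for a difference of either sign. The call of TNRC6A with 12 libraries was lost without any 1 library other than S4 (adjusted p of 0.0610 without S12 to 0.151 without S5) and with RLE scaling (0.0629). With library totals as the only scaling AGO2 and TNRC6B also passed (adjusted p = 0.0490 and 0.0471), and 46.9% of the calls over all genes were higher in HCC1187, against 33% with TMM.

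Between the controls, the widest gaps among the members were those of AGO2 and DICER1. AGO2 was 2.35-fold and DICER1 1.99-fold higher in HCC1187, and both scaffold genes were higher as well. In edgeR's test 6 members were higher in HCC1187, 1 was lower and 3 did not pass, but 84.1% of the 15592 genes tested passed here, 43.6% higher and 40.4% lower. The members' count is thus no result about the set, and it became 8 higher and 0 lower with library totals as the only scaling. The line, its medium and its libraries cannot be told apart in this comparison.

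AGO2 averaged 248 ± 18.7 CPM in HCC1187 sh-CONTROL and 106 ± 8.67 CPM in MDA-MB-468 sh-CONTROL (SD, n = 3 each), with a log2 fold change of 1.23 ± 0.08 (edgeR adjusted p = 5.88e-12). DICER1 averaged 219.9 ± 12.3 CPM in HCC1187 and 111 ± 10.4 CPM in MDA-MB-468 (0.99 ± 0.08, adjusted p = 1.92e-10). The ranges of both genes were far apart. TNRC6B averaged 84.3 ± 6.69 CPM in HCC1187 and 57.7 ± 5.12 CPM in MDA-MB-468 (0.56 ± 0.09, adjusted p = 8.41e-06), and TNRC6A 105 ± 3.58 CPM in HCC1187 and 83.5 ± 4.32 CPM in MDA-MB-468 (0.35 ± 0.08, adjusted p = 0.000338). The nuclease DROSHA averaged 138 ± 0.537 CPM in HCC1187 and 112 ± 2.69 CPM in MDA-MB-468 (0.32 ± 0.07, adjusted p = 0.000361). AGO1 was barely higher in HCC1187 (142 ± 6.68 CPM, against 127 ± 2.06 CPM in MDA-MB-468; 0.18 ± 0.07, adjusted p = 0.0288).

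XPO5 went the other way, with 172 ± 0.300 CPM in HCC1187 and 211 ± 21.2 CPM in MDA-MB-468 (−0.29 ± 0.08, edgeR adjusted p = 0.00196). AGO3 (−0.15 ± 0.09), DGCR8 (0.13 ± 0.08) and TARBP2 (0.09 ± 0.11) did not pass. Library totals as the only scaling moved the median of all genes from 0.06 to 0.29. XPO5 then no longer passed (−0.05, adjusted p = 0.540), DGCR8 and TARBP2 were higher in HCC1187 (0.36 and 0.32), and AGO3 had a value of 0.08. AGO1 was lost without S1 (adjusted p = 0.0954), S2 (0.0947) or S8 (0.112), with DESeq2 (0.0510) and with all 12 libraries in 1 fit (0.141), while AGO3 was lower in HCC1187 without S3 (−0.23, adjusted p = 0.0186).

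**Figure D3:**
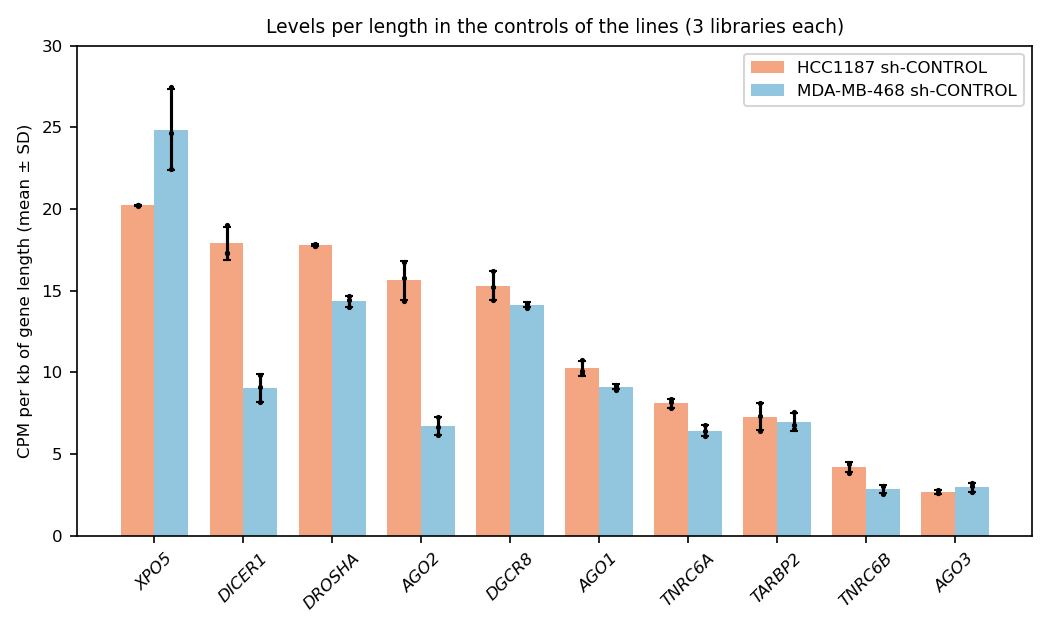
Level per length (CPM per kb of deposited gene length; bars, mean ± SD; dots, 3 libraries) of the 10 genes in the controls, HCC1187 left of MDA-MB-468. XPO5 is highest in both lines, AGO2 and DICER1 are the genes with the widest gap between the lines, and TNRC6B and AGO3 are lowest.

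Per length, XPO5 had the highest level in all 4 groups, from 20.2 CPM per kb in HCC1187 sh-CONTROL to 24.9 in MDA-MB-468 sh-CONTROL, and in each group its range was apart from the next gene. The order depends on the deposited gene length. Before division by length, AGO2 (228 to 265 CPM) and DICER1 (213 to 234 CPM) were above XPO5 (171 to 172 CPM) in HCC1187 sh-CONTROL. In HCC1187 sh-CONTROL the order went on with DICER1 (17.9 ± 1.00), DROSHA (17.8 ± 0.0690), AGO2 (15.6 ± 1.18), DGCR8 (15.3 ± 0.893), AGO1 (10.2 ± 0.481), TNRC6A (8.13 ± 0.276), TARBP2 (7.30 ± 0.841), TNRC6B (4.21 ± 0.334) and AGO3 (2.68 ± 0.108). DICER1 and DROSHA overlapped there, as did AGO2 and DGCR8, and TNRC6A and TARBP2. In HCC1187 sh-SOX9-AS1, AGO2 (17.9 ± 1.29 CPM per kb) came next after XPO5 and DICER1 (14.7 ± 1.07) came after DGCR8 and DROSHA, with AGO2, DGCR8, DROSHA and DICER1 each overlapping its neighbour.

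In MDA-MB-468 sh-CONTROL the second gene was DROSHA (14.4 ± 0.346 CPM per kb), whose range overlapped that of DGCR8 (14.1 ± 0.155). AGO1 (9.12 ± 0.148) and DICER1 (9.04 ± 0.842) followed with overlapping ranges, and then TARBP2 (6.96 ± 0.534), AGO2 (6.72 ± 0.547) and TNRC6A (6.44 ± 0.333), each overlapping the next. AGO3 (2.99 ± 0.276) and TNRC6B (2.89 ± 0.256) were lowest. In MDA-MB-468 sh-SOX9-AS1 AGO2 came after TNRC6A, at 4.70 ± 1.25 CPM per kb with S4 in the mean.

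The fourth Argonaute gene, AGO4, lies beside AGO1 and AGO3 on chromosome 1, with 11917 bases from the end of AGO4 to the start of AGO1 and 189 bases from the end of AGO1 to the start of AGO3, all on the plus strand. In MDA-MB-468 AGO4 had 40.4, 62.9 and 64.2 CPM in S4 to S6 with sh-SOX9-AS1, against 35.6, 39.6 and 42.7 CPM with sh-CONTROL. S5 and S6 were high, where AGO1 was low, and S4 lay within the controls. AGO4 rose by 0.69 ± 0.11 on the log2 scale without S4 (edgeR adjusted p = 0.000135) and did not pass with 6 libraries (0.51 ± 0.18, adjusted p = 0.215). In HCC1187 it had 52.8, 58.7 and 56.3 CPM with sh-SOX9-AS1, against 68.1, 66.7 and 61.7 CPM with sh-CONTROL, and did not pass (−0.24 ± 0.09, adjusted p = 0.0710). The difference between the lines was −0.74 ± 0.21 with 12 libraries (adjusted p = 0.0600) and −0.92 ± 0.14 without S4 (adjusted p = 1.99e-05).

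The make-up of the Argonaute RNA pool can be read per length. AGO2 held 49.1% ± 1.05 of the summed AGO1 to AGO4 level per kb in HCC1187 sh-SOX9-AS1 and 41.8% ± 2.51 in HCC1187 sh-CONTROL (SD, n = 3 each). In MDA-MB-468 it held 26.9%, 18.7% and 17.4% in S4, S5 and S6 with sh-SOX9-AS1, against a mean of 27.8% ± 1.37 with sh-CONTROL. AGO4 held 23.8%, 38.4% and 39.1% in S4, S5 and S6, against 21.9% ± 1.76 with sh-CONTROL. AGO2 was thus the most abundant Argonaute RNA per length in HCC1187 and AGO4 in S5 and S6, while these shares, with no counting interval, were not tested. The place of AGO4 depends on the deposited gene length, 7423 bases against 13890 for AGO1, and the length of the expressed transcripts was not measured. By CPM, AGO1 was the highest Argonaute gene in S5 and S6 (96.6 and 96.9), above AGO4 (62.9 and 64.2).

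**Figure D4:**
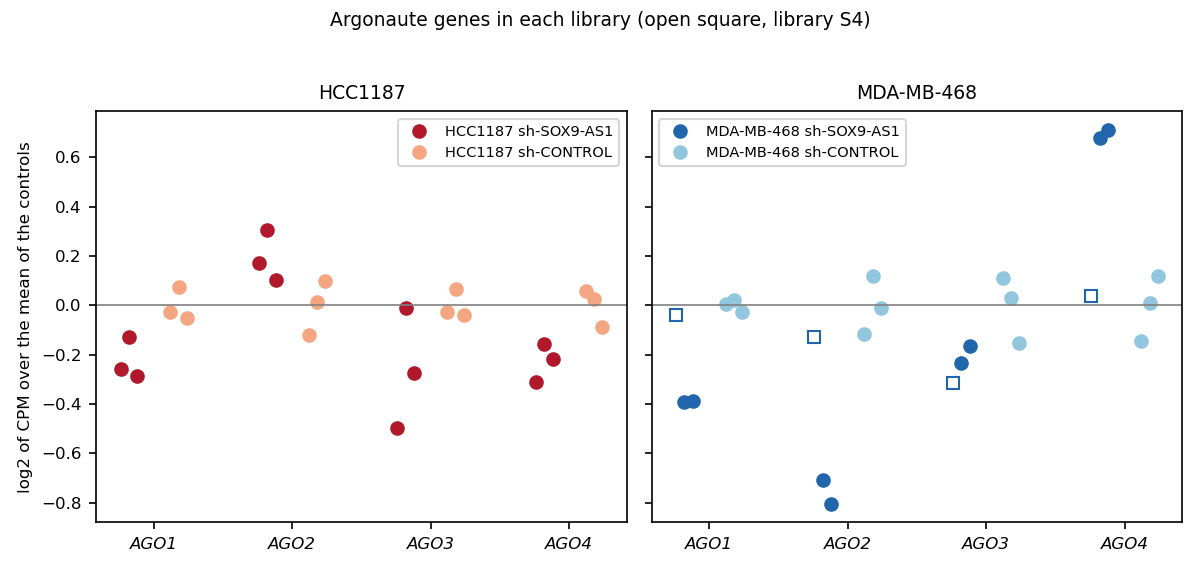
Log2 ratio of each library's CPM to the mean of its line's sh-CONTROL libraries for the 4 Argonaute genes, sh-SOX9-AS1 left of sh-CONTROL, S4 as an open square. In MDA-MB-468 S5 and S6 lie below 0 for AGO1, AGO2 and AGO3 and above 0 for AGO4, and in HCC1187 AGO2 is the gene whose sh-SOX9-AS1 libraries all lie above 0.

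Genes that work with the members were read from 6 lists, beside 22.8% of all genes that passed in HCC1187 (9.78% higher, 13.1% lower) and 40.7% in MDA-MB-468 without S4 (20% higher, 20.7% lower). Among 18 cofactors of primary microRNA processing in HCC1187, 14 did not pass, 4 fell and 0 rose, with a median log2 fold change of −0.13 (all genes, 0.01). QKI, an RNA-binding regulator of splicing, fell by 0.73 ± 0.10 (edgeR adjusted p = 1.55e-05), and TARDBP, which binds DROSHA, fell by 0.39 ± 0.09 (adjusted p = 0.00199). The fall of TARDBP passed in 10 of 11 alternatives, with adjusted p up to 0.150. In MDA-MB-468 without S4 8 did not pass, 7 fell and 3 rose, with a median of −0.20 (all genes, −0.00). SMAD3 (−0.80 ± 0.10, adjusted p = 1.88e-05) and KHSRP (−0.51 ± 0.08, adjusted p = 0.000150) fell there, and with 6 libraries had −0.47 (adjusted p = 0.283) and −0.28 (0.3545). The share called in HCC1187 was near that of all genes. With S4 kept, 0 of the 18 passed in MDA-MB-468.

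Of 10 export and Dicer partner genes 7 did not pass in HCC1187, while 3 fell and 0 rose (all genes, 22.8% called), with a median log2 fold change of −0.04. TSN and TSNAX, the subunits of the C3PO nuclease that removes the passenger strand, fell by 0.39 ± 0.09 (edgeR adjusted p = 0.00351) and by 0.41 ± 0.12 (adjusted p = 0.0148; 0.124 without S8). SND1, a RISC-associated nuclease, fell by 0.33 ± 0.08 (adjusted p = 0.00626). PRKRA, a partner of DICER1 like TARBP2, and the RNA-editing enzyme gene ADAR did not pass in HCC1187 (adjusted p = 0.783 and 0.658) or in MDA-MB-468 without S4 (0.177 and 0.328). In MDA-MB-468 without S4 4 of the list fell and 2 rose (all genes, 40.7% called), with a median of −0.21, and DHX9, an RNA helicase (−0.53 ± 0.08, adjusted p = 7.90e-05), and GEMIN4 (−0.68 ± 0.10, adjusted p = 0.000110) were among the falls. TSN fell there as well (−0.41 ± 0.11, adjusted p = 0.00774), with 0 of the 10 passing when S4 was kept. With 6 libraries DHX9 had −0.37 (adjusted p = 0.211), GEMIN4 −0.42 (0.275) and TSN −0.34 (0.223).

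Chaperones load the small RNA duplex into Argonaute, and 12 of their genes were tested. In HCC1187 9 did not pass, 2 rose and 1 fell (all genes, 22.8% called), with a median log2 fold change of 0.10. PTGES3, the p23 cochaperone of HSP90, fell by 0.54 ± 0.12 (edgeR adjusted p = 0.00158), and HSPA8, the constitutive HSP70, rose by 0.24 ± 0.08 (adjusted p = 0.0328). The other rise was DNAJB1, an HSP40 (0.25 ± 0.09, adjusted p = 0.0482). Both rises were lost under most settings: HSPA8 passed in 4 and DNAJB1 in 2 of 11 alternatives, with adjusted p up to 0.348 and 0.339. Leaving out any 1 library but S10 ended the call of HSPA8 (adjusted p of 0.0643 to 0.141), and any but S11 that of DNAJB1 (0.0764 to 0.203). In MDA-MB-468 without S4 4 did not pass, 8 fell and 0 rose (all genes, 40.7% called), with a median of −0.28. HSPA8 fell there by 0.87 ± 0.08 (adjusted p = 7.63e-07) and HSP90AB1, a cytosolic HSP90, by 0.47 ± 0.08 (adjusted p = 0.000365), again with 0 of 12 passing when S4 was kept (−0.56, adjusted p = 0.215 for HSPA8 and −0.21, 0.512 for HSP90AB1).

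Deadenylation and decay genes act below the TNRC6 proteins. In HCC1187 21 of 31 did not pass, 8 fell and 2 rose (all genes, 22.8% called), with a median log2 fold change of −0.07. CNOT11 (−0.90 ± 0.09, edgeR adjusted p = 3.00e-07) and CNOT6 (−0.68 ± 0.10, adjusted p = 5.52e-05), subunits of the CCR4-NOT deadenylase that TNRC6 proteins recruit, fell. XRN1, the 5′ exonuclease that follows decapping, fell by 0.55 ± 0.10 (adjusted p = 0.000244). Its fall passed in 10 of 11 alternatives, with adjusted p up to 0.0945. In MDA-MB-468 without S4 16 of 30 did not pass, 9 fell and 5 rose (all genes, 40.7% called), with a median of −0.12. DDX6, a helicase that represses translation (−0.67 ± 0.10, adjusted p = 7.88e-05), and the poly(A)-binding protein genes PABPC4 (−0.52 ± 0.08, adjusted p = 9.10e-05) and PABPC1 (−0.41 ± 0.07, adjusted p = 0.000423) fell there. With S4 kept, 0 of 30 passed, and DDX6 had −0.61 (adjusted p = 0.205), PABPC4 −0.32 (0.2875) and PABPC1 −0.30 (0.209).

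Among genes that control let-7 and precursor microRNAs, 12 of 15 tested did not pass in HCC1187, 3 fell and 0 rose (all genes, 22.8% called), with a median log2 fold change of −0.18. LIN28B, which binds let-7 precursors and blocks their cutting by DICER1, had 59.8 ± 6.39 CPM with sh-SOX9-AS1 and 139 ± 11.3 CPM with sh-CONTROL (SD, n = 3 each; −1.22 ± 0.10, edgeR adjusted p = 1.31e-08). It had 2 to 6 counts per library in MDA-MB-468 and was not tested there. In MDA-MB-468 without S4 6 of 13 did not pass, 4 rose and 3 fell (all genes, 40.7% called), with a median of 0.07. TENT4B, a poly(A) polymerase, fell by 0.73 ± 0.12 (adjusted p = 0.000173). HNRNPA2B1, an RNA-binding protein gene, rose by 0.39 ± 0.08 (adjusted p = 0.000896), and METTL3, the m6A methyltransferase that marks primary microRNAs, rose by 0.59 ± 0.12 (adjusted p = 0.00113). When S4 was kept 0 of 13 passed, with −0.56 for TENT4B (adjusted p = 0.205), 0.23 for HNRNPA2B1 (0.381) and 0.49 for METTL3 (0.207).

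**Figure D5:**
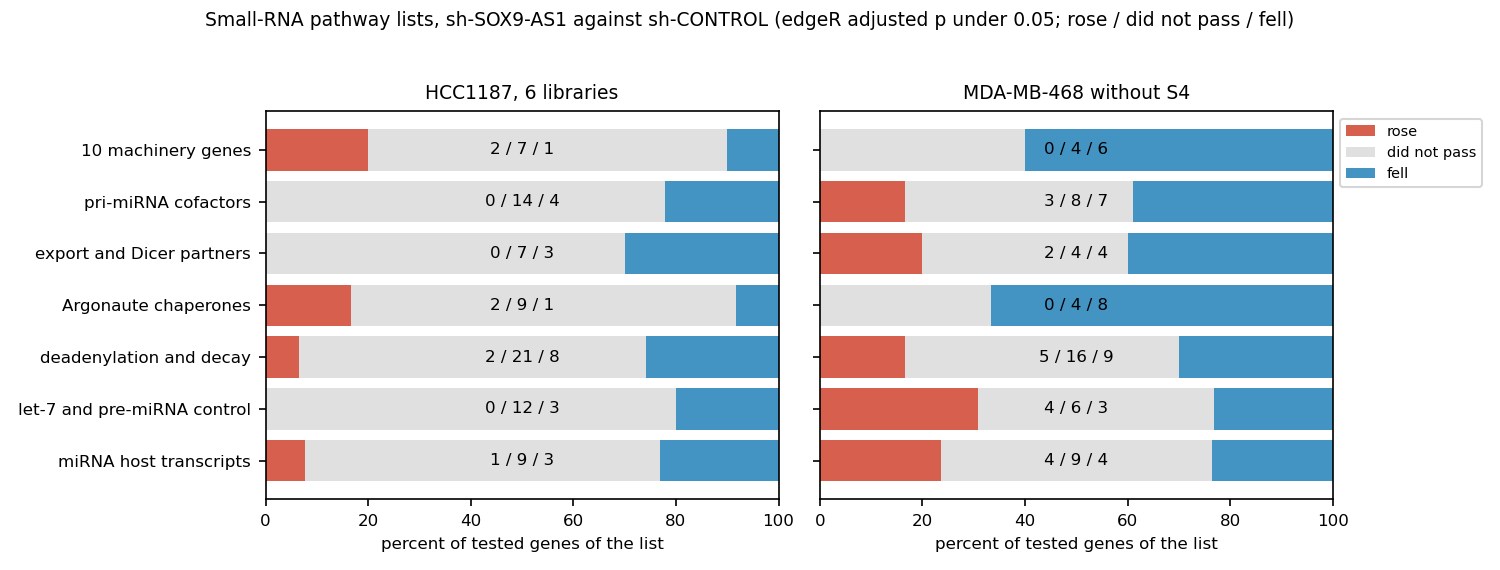
Share of the tested genes of each list (percent) that rose, did not pass or fell with sh-SOX9-AS1 in HCC1187 (6 libraries) and MDA-MB-468 without S4, with the counts printed in the bars. The 10 machinery genes have 2 rises and 1 fall in HCC1187, where 22.8% of all genes tested passed. They have 6 falls in MDA-MB-468 without S4, where 40.7% of all genes passed.

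Long transcripts that host microRNAs are substrates of DROSHA and DGCR8. In HCC1187 9 of 13 tested did not pass, 3 fell and 1 rose (all genes, 22.8% called), with a median log2 fold change of −0.03. In MDA-MB-468 without S4 9 of 17 did not pass, 4 rose and 4 fell (all genes, 40.7% called), with a median of 0.02, and 0 of 17 passed when S4 was kept. Mature RefSeq sequences from MIR210HG, MIR17HG, MIR222HG and MIR34AHG are given because these hosts differ in which seeds they carry. Only 1 arm of each hairpin is shown, and other microRNAs of these hosts are not. Capitals mark bases 2 to 8.
hsa-miR-210-3p: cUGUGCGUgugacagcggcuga
hsa-miR-17-5p: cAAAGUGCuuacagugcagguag
hsa-miR-221-3p: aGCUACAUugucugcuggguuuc
hsa-miR-222-3p: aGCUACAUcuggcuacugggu
hsa-miR-34a-5p: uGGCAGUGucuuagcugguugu
The microRNAs miR-221-3p and miR-222-3p share the seed GCUACAU and 1 host, MIR222HG, and the other 3 seeds differ. They lie at chrX:45746180-45746202 and chrX:45747036-45747056 on the minus strand. The others lie at chr11:568112-568133 (miR-210-3p, minus strand), chr13:91350618-91350640 (miR-17-5p, plus strand) and chr1:9151735-9151756 (miR-34a-5p, minus strand). In a GENCODE reference, miR-17-5p and miR-34a-5p lie within exons of their hosts. There miR-210-3p, miR-221-3p and miR-222-3p lie inside the host genes but not within their exons.

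MIR210HG, the host of the hypoxia-linked miR-210, rose in HCC1187 by 0.68 ± 0.14 (edgeR adjusted p = 0.00150). That rise passed in 10 of 11 alternatives, with adjusted p up to 0.266. In MDA-MB-468 MIR210HG rose by 2.33 ± 0.23 without S4 (edgeR adjusted p = 1.90e-06) and did not pass with 6 libraries (1.86 ± 0.59, adjusted p = 0.207). Its levels in MDA-MB-468 were 2.53, 17.2 and 14.1 CPM in S4 to S6 with sh-SOX9-AS1, against 2.24, 3.16 and 3.97 CPM with sh-CONTROL. S4 lay inside the controls. MIR17HG, the host of the miR-17 to miR-92 cluster, had 13.1, 15.5 and 14.7 CPM in HCC1187 with sh-SOX9-AS1, against 21.5, 26.4 and 19.4 CPM with sh-CONTROL (−0.64 ± 0.14, adjusted p = 0.00181). MIR222HG had 11.6, 15.3 and 18.04 CPM with sh-SOX9-AS1, against 23.3, 28.0 and 20.8 CPM with sh-CONTROL (−0.66 ± 0.15, adjusted p = 0.00255). In both hosts all sh-SOX9-AS1 libraries lay below all controls, as in 19.2% of all genes tested in HCC1187. MIR34AHG, the host of the p53-linked miR-34a, had 6.49, 13.3 and 10.99 CPM in S4 to S6 of MDA-MB-468 with sh-SOX9-AS1, against 3.47, 4.26 and 4.62 CPM with sh-CONTROL, and rose without S4 (1.56 ± 0.21, adjusted p = 4.23e-05; 1.32 ± 0.29 with 6 libraries, adjusted p = 0.205). MIR205HG, the host of miR-205, rose there without S4 as well (1.12 ± 0.14, adjusted p = 2.32e-05; 0.90 ± 0.25 with 6 libraries, adjusted p = 0.205).

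Exons of some members overlap those of other genes in a GENCODE reference, which need not be the annotation used for counting. XPO5 shares 348 of 8522 exon bases with POLR1C on the opposite strand, DGCR8 shares 526 of 7315 with the antisense RNA AC006547.2, and AGO1 shares 396 of 13886 with AL139286.2. No source used here states whether counting used strand. Whether reads from these stretches were counted for the member or left out is therefore not known.

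Genes with the most similar pattern were sought for AGO2 and DICER1 by Pearson correlation of log2 CPM over the 12 libraries, after the mean of each line was subtracted, among 10741 genes of at least 10 CPM on average. For AGO2 they were ADGRA3 (r = 0.967), NRP2 (0.964) and DAGLA (0.959), and for DICER1 they were NIN (0.975), PAWR (0.975) and EIF1AX (0.967). These are the highest of many values, and the points share libraries, depth and the split of S5 and S6 from the rest. Within HCC1187 alone the AGO2 values were 0.835, 0.762 and 0.704, and the DICER1 values 0.987, 0.993 and 0.946. Within MDA-MB-468 alone they were 0.987, 0.993 and 0.993 for AGO2 and 0.987, 0.983 and 0.988 for DICER1.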

How the data were processed

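The count values are the authors' deposited raw counts per gene, whole reads with no scaling, together with a deposited gene length. Per the submitters' processing notes reads were handled with HISAT2 2.1.0, featureCounts 2.0.0, Trimmomatic 0.39, SAMtools, MultiQC 1.11 and FastQC 0.11.9, and the build was GRCh38; no source used here names the annotation or strand setting. The columns split each library by lane and carry no replicate number, so lane 1 was used and 24 of 36 count columns were not. Of 60675 ids 60356 matched a reference name; AGO1, AGO2 and AGO3 stand in the tables as dates and were matched by Ensembl id.

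Each comparison used edgeR 4.0.16 in R 4.3.3 (quasi-likelihood test, TMM scaling) on genes kept by filterByExpr with a count minimum of 10 and a total minimum of 15, with Benjamini-Hochberg adjustment over all genes tested at 0.05. The SE is the log2 fold change divided by the root of F. The steps were also run on simulated data with planted changes larger than those of the members called in HCC1187. That run therefore says nothing on changes of their size. Alternatives were RLE or library-total scaling, no filter, DESeq2 1.42.0, 1 fit of all 12 libraries, and leaving out each library. All 10 members are named; from each other list and comparison at most 4 genes, from those with the smallest p, and AGO4, TNRC6C, PRKRA, ADAR and LIN28B. Members, lists and the fit without S4 were chosen with earlier results of these data known.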

Additional observations from a re-analysis of the deposited data

Results flagged for a closer look

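Several genes had a knockdown difference that itself differed between the lines (HCC1187 minus MDA-MB-468, log2 scale, edgeR's interaction test, adjusted p). Over all genes tested, 3.75% passed with 12 libraries and 25.6% without S4, so the count of genes given here is no result about the lists. Other genes of the lists also passed without S4 and are not given, among them 6 of 12 chaperone genes. With all 12 libraries TNRC6A had 0.61 (adjusted p = 0.04996), the RISC-associated nuclease SND1 −0.52 (0.0258), the deadenylase subunit CNOT11 −0.82 (0.00404) and the P-body gene LSM14B 0.64 (0.0210). Without S4 the values were 0.75 for TNRC6A (0.000107), −0.54 for SND1 (0.000741), −0.81 for CNOT11 (2.75e-05) and 0.72 for LSM14B (0.000128). AGO2 at 0.95 (6.15e-06), DGCR8 at 0.59 (0.000608), TNRC6B at 0.49 (0.0150) and AGO4 at −0.92 (1.99e-05) passed without S4 and did not pass with all 12 libraries under the settings of the report; over the 16 alternatives, of which the fit without S4 is 1, AGO2 passed in 4, TNRC6B and AGO4 in 3 each and DGCR8 in 1. CNOT11 passed in all 16 alternatives tried, with values of −0.87 to −0.75, LSM14B in 8 of 16, SND1 in 7 of 16 and TNRC6A in 4 of 16.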

How the results depend on the processing

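In HCC1187 the 3 members called became 0, and the 3418 genes called became 1499, with all 12 libraries in 1 fit; leaving out each library gave 1 to 3 members and 2213 to 3410 genes. XPO5, near 0 in HCC1187, turned to 0.055 with library totals and to 0.0075 with all 12 libraries, and leaving out each library gave −0.029 to 0.0063. In MDA-MB-468, 0 members and 1 gene were called with 6 libraries; no filter gave 1 member and 1441 genes, DESeq2 304 genes and all 12 libraries in 1 fit 887. Leaving out each library gave 0 to 6 members and 0 to 5676 genes, the highest without S4. For the difference between the lines, 1 member and 613 genes, the members called were 0 with RLE scaling, 3 with library totals, 2 with no filter (1415 genes) and 3 with DESeq2 (1170 genes). Leaving out each library gave 0 to 4 members and 129 to 4300 genes. Differences near 0 changed sign: AGO1 (−0.011) and DROSHA (−0.0051) with no filter, AGO3 (0.059) with library totals, and DICER1 with RLE scaling (−0.0155), no filter (−0.052) and DESeq2 (−0.0154). Leaving out each library gave −0.023 to 0.16 for AGO1, −0.14 to 0.093 for AGO3, −0.068 to 0.066 for DICER1 and −0.0074 to 0.092 for DROSHA. Between the controls AGO3 had 0.085 with library totals. The cause of these changes was not tested. In the controls' comparison 6 to 8 members passed in every alternative run, where 7 passed with the settings of the report. Over all genes 12650 to 15987 passed in these alternatives, and 13108 (84.1%) with the settings of the report, so the members' count is no result about the set. No paired analysis was possible because the count columns carry no replicate number.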

Other observations

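Genes that work with the machinery are given here for the controls of the lines, where 84.1% of all genes tested passed. HSPA8, the HSP70 of Argonaute loading, was lower in HCC1187 than in MDA-MB-468 (log2 fold change −2.92 ± 0.08, edgeR adjusted p = 9.74e-19), as was CDC37, a cochaperone of HSP90 (−2.16 ± 0.08, adjusted p = 2.26e-16). DDX17, a helicase of the Microprocessor, was higher in HCC1187 (1.63 ± 0.07, adjusted p = 4.10e-15), and so was PAN2, a deadenylase that TNRC6 proteins recruit (2.40 ± 0.11, adjusted p = 8.53e-15). PABPC4 was lower in HCC1187 (−1.90 ± 0.07, adjusted p = 7.46e-16), as was DHX9 (−1.19 ± 0.07, adjusted p = 1.19e-12). The scaffold gene TNRC6C averaged 29.4 ± 1.85 CPM in HCC1187 sh-CONTROL and 9.98 ± 0.465 CPM in MDA-MB-468 sh-CONTROL (SD, n = 3 each; 1.57 ± 0.13, adjusted p = 1.54e-10).

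Of 17 host transcripts of microRNAs tested, 6 were higher in HCC1187, 9 were lower and 2 did not pass, a share called near the 84.1% of all genes. MIR503HG had 53.9, 44.8 and 41.0 CPM in HCC1187 sh-CONTROL, against 1.007, 0.962 and 1.41 CPM in MDA-MB-468 sh-CONTROL. MIR205HG was listed at 0 in all HCC1187 controls and had 51.7, 59.3 and 82.1 CPM in the MDA-MB-468 controls.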
